A study of Mus musculus with 64 samples.

Results

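The comparison of a high-fat diet (HFD) with chow in the liver of wild-type (WT) mice rests on 8 of the 16 libraries of the series, taken by their labels: 4 from WT mice on HFD (libraries 1 to 4) and 4 from WT mice on chow (libraries 5 to 8). Both groups carried the mouse Mgat2 gene unmodified and had eaten their diet for 16 weeks when liver RNA was taken. The remaining 8 libraries came from HuMgat2 mice, which express human MOGAT2, on the same 2 diets. They served here in filtering and scaling the counts, in estimating the spread between libraries and in testing whether the diet effect differed with genotype. Strain, sex, age, fat content of the diet, hour of collection and feeding state are not given in the labels, and a difference in any of them between the groups cannot be told apart from the diet. The labels do not say that each library is a separate animal, so p-values measure the spread between these libraries. In bulk tissue, fewer cells of a type and less RNA per cell cannot be told apart.

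One HFD library stood apart from the others of its group, and counts of changed genes are therefore given with and without it. WT HFD library 4 held 12.4 M counts, against 19.5 to 25.8 M in the other 7 WT libraries. Albumin took 0.85% of its counts and 3.30% to 6.02% of those of the others, while the acute phase genes Saa1 and Saa2 together took 1.47% and at most 0.0149%. Its median Spearman correlation with the libraries of its own group was 0.954, against 0.983 to 0.987 for the others. Hepatocyte markers were present in all WT libraries: 14 of 15 listed symbols were in the table, with a summed level of 69205 CPM (counts scaled to the size of the library) in library 4, 88712 to 93872 in the other HFD libraries and 98708 to 115823 on chow. The summed level of 26 monocyte and neutrophil markers was 213 CPM in library 4, 17.3 to 22.8 in HFD libraries 1 to 3 and 9.9 to 18.9 on chow. Muscle markers summed to at most 1.43 CPM and pancreas markers to at most 6.43 CPM in any WT library. The sum of 8 adipocyte markers was 3163 to 3666 CPM in HFD libraries 1 to 3, 90.2 in library 4 and 3902 to 5019 on chow, and Car3, which liver also expresses, made up most of it (3362, 3528, 3078 and 83.7 CPM on HFD and 4247, 3896, 4473 and 5017 on chow). Adipoq and Lep had no count in any WT library. Unlike the sum, Cfd and Cidea, 2 of the 4 adipocyte markers tested, were called higher in both fits. The log2 change of Cfd was 8.05 with all libraries and 8.46 without library 4 (edgeR adjusted p = 0.000243 and 4.18e-10). That of Cidea was 3.39 and 3.71 (adjusted p = 0.0374 and 0.0156). The call of Cidea was lost with all libraries when HFD library 2 or 3 or any chow library was left out, and without library 4 when HFD library 2 was. The sum of 18 cholangiocyte markers was 120 to 209 CPM on HFD and 103 to 119 on chow, with Spp1 and Onecut1 higher among 12 tested and Onecut1 alone without library 4. Starting from all libraries, the count was 0 without chow library 7 and 1 without any other library except HFD library 1. A single lower call appeared without HFD library 2, and without HFD libraries 2 and 4 no cholangiocyte marker was called. The part of these cells in the results was not tested.

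As background, the liver clears foreign and endogenous compounds in steps: cytochrome P450 enzymes and other oxidoreductases make a reactive group, transferases attach glutathione, glucuronic acid or sulfate, and transporters export the product. The transcription factors NRF2, CAR and PXR set the level of many of these genes. Hepatocytes also run a circadian clock, in which CLOCK, NPAS2 and ARNTL activate the Per and Cry repressor genes through E-box sequences and output factors such as DBP and TEF act on D-box sequences, and feeding is a strong time cue for it. Intake of fat is known to shift lipid handling and, with time, to bring immune cells into the liver.

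Diet changed genes in both directions. With all libraries 2617 of 17318 genes tested were called at an adjusted p below 0.05, which is 15.1%: 1449 were higher on HFD (8.37%) and 1168 lower (6.74%). Without library 4 the count was 2593 of 17642 (14.7%), with 1356 higher (7.69%) and 1237 lower (7.01%). The 2 fits shared 2063 calls of the same sign, 1060 higher and 1003 lower, and no gene was called with opposite signs. They are 78.8% of the calls with all libraries and 79.6% of those without library 4. A further 554 genes were called with all libraries only, 389 of them higher, and 530 without library 4 only, 296 of them higher. All HFD libraries lay beyond all chow libraries in 18.2% of tested genes, and in 26.3% when 3 HFD libraries were compared with 4. Of the 2063 shared calls 1773 had no overlap. Of the 2617 changes 935 were below 1.5-fold, 695 between 1.5-fold and 2-fold and 747 between 2-fold and 4-fold, and 240 reached 4-fold, 174 higher and 66 lower. When the 2 WT groups were fitted alone, 1452 of 16442 genes were called with all libraries, 655 of them higher. Without library 4 there were 2473 of 16730. That fit, named below by its spread from the WT groups alone, also took its filter and scaling from these libraries. The median log2 change over all tested genes was 0.03 with all libraries and 0.02 without library 4. Protein-coding genes were called in 17.6% of 13115 tested, long noncoding genes in 8.68% of 2385 and pseudogenes in 5.33% of 1595.

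**Figure D1:**
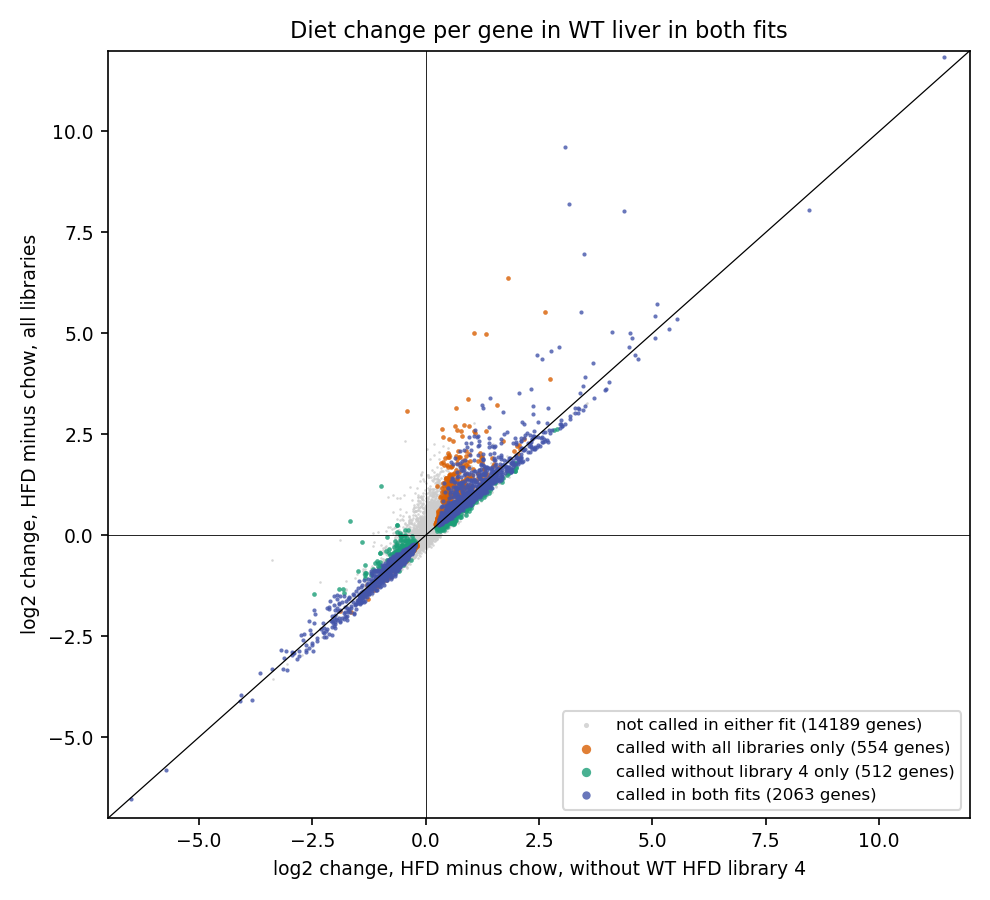
Each point is a gene tested in both fits. The horizontal axis is its log2 change (HFD minus chow) without WT HFD library 4 and the vertical axis the same with all libraries, and colors give in which fit it was called. The 2063 genes called in both lie near the diagonal except for a group of increases above it, whose log2 change is larger with library 4.

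The gene groups described next were lists of pathway members or symbol families, and their counts are read against those shares of all genes. Conjugation and antioxidant genes had the largest shares lower among the groups plotted. Calls in immune groups were mostly of higher genes, and several of these counts shrank without library 4.

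**Figure D2:**
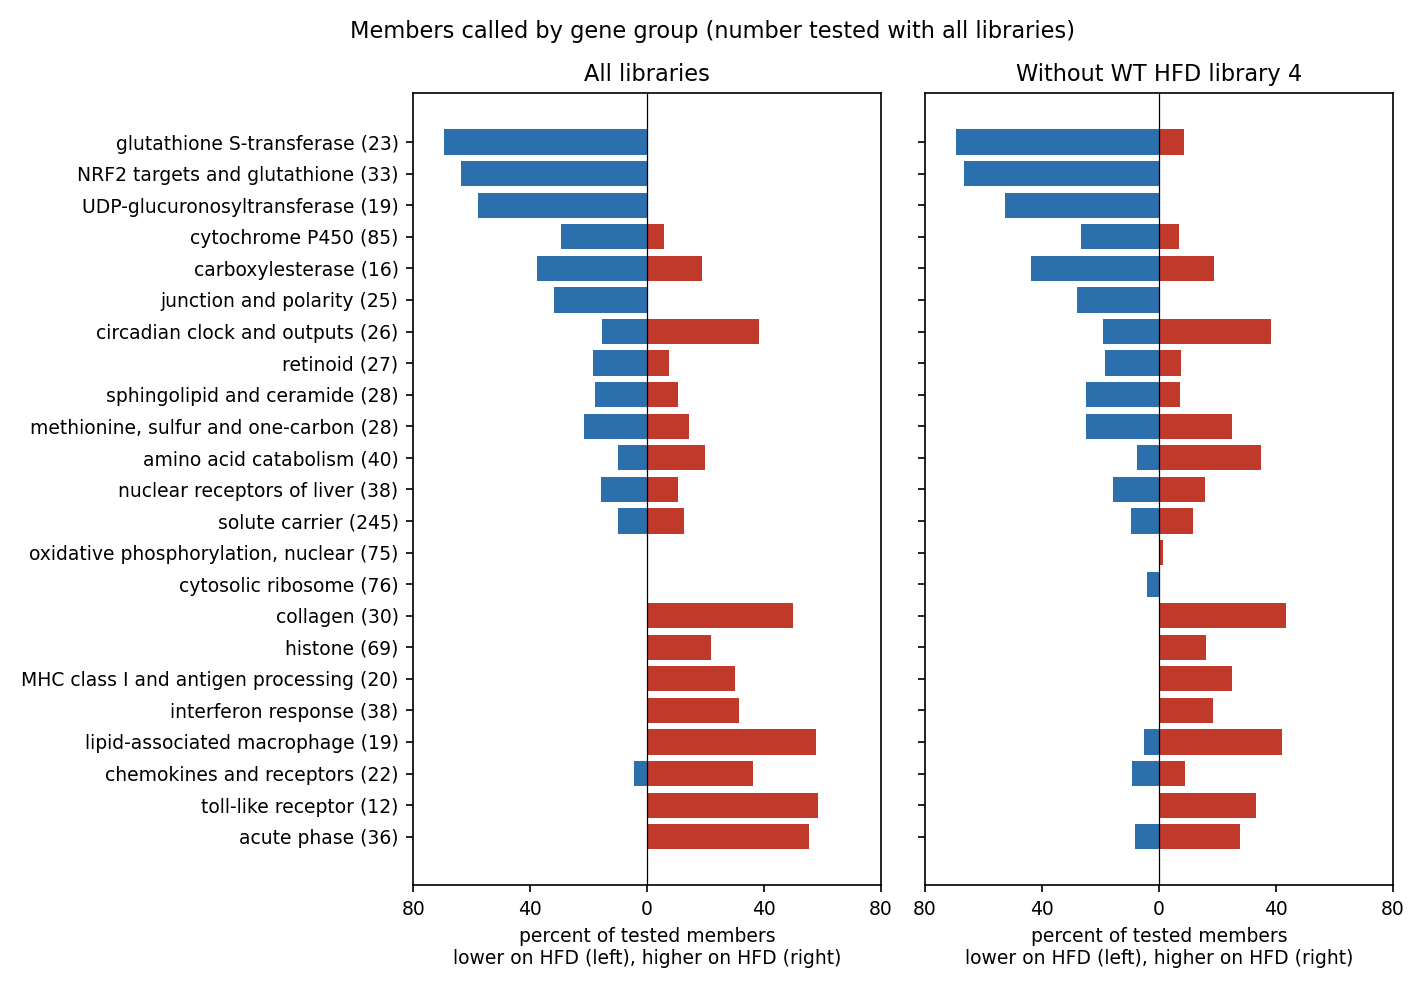
Bars give the percent of tested members called lower (left of 0) and higher (right of 0) on HFD for 23 gene groups, with all libraries in the left panel and without WT HFD library 4 in the right one. The number in brackets is the number of members tested. Many tested members of the glutathione S-transferase, NRF2 target and glucuronosyltransferase groups are lower in both panels, and the acute phase and chemokine bars shorten in the right panel.

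Genes of several detoxification families were lower on HFD. Of 33 tested NRF2 targets and glutathione genes 21 fell and 0 rose, against 6.74% lower among all genes, and without library 4 the counts were 22 and 0. Of 23 glutathione S-transferase genes 16 fell and 0 rose, and the same 16 were lower without library 4, when 2 others (Gstk1 and Gstz1) were higher. Of 19 UDP-glucuronosyltransferase genes 11 fell and 0 rose (10 and 0 without library 4). The median log2 change was -0.74, -0.99 and -0.69 in the 3 groups with all libraries and -0.64, -0.74 and -0.57 without library 4, beside 0.03 and 0.02 over all genes. Many of these genes are close paralogs, and the Ugt1a genes share exons, so values of single members are less certain than the group pattern. These lists overlap: 9 of the 33 tested NRF2 list members are glutathione S-transferase genes. The NRF2 list also holds Ugt1a6a and the carboxylesterase gene Ces1g, both lower in both fits. The 12 tested members not lower in both fits included Nqo1, Txnrd1, Srxn1, Osgin1, Me1, G6pdx, Abcc2 and Cbr3 (named after their values were seen). Without HFD library 3, 1 NRF2 list member was higher. Other detoxification families had 0 lower calls in both fits: 2 of 7 sulfotransferase, 1 of 4 flavin monooxygenase and 1 of 17 aldehyde dehydrogenase genes rose, and 2 of each without library 4. The sulfotransferase count was 1 when any other single library was left out, and 1 aldehyde dehydrogenase gene was lower without HFD library 3.

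The 2 genes of this group printed here hold a searched motif in their promoters. Ugdh makes UDP-glucuronic acid, the sugar that glucuronosyltransferases attach, and Gclm encodes the modifier subunit of the enzyme that starts glutathione synthesis. Both promoters are from the RefSeq table for GRCm38.p6, in the direction of the gene, and end at or before its start. Capitals mark the core of the antioxidant response element, searched as TGACNNNGC on both strands, to which NRF2 binds. The Gclm stretch is chr3:122245307-122245556 on the plus strand, with the motif read from the opposite strand 134 bases before the start. The Ugdh stretch is chr5:65435950-65436092 on the minus strand, with the motif 132 bases before the start. A further Ugdh match, 94 bases before the start, lies beyond the stretch printed.
Gclm: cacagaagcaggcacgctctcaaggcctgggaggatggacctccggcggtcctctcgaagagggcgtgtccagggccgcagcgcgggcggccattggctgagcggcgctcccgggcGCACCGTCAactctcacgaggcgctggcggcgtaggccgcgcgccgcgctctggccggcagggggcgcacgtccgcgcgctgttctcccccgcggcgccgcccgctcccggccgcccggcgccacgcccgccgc
Ugdh: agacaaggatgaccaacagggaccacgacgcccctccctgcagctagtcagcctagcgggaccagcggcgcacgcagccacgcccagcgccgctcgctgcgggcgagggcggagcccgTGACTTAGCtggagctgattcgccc
Of the 21 list members lower in both fits 17 were in the promoter table, with 20 promoters of 250 bases before the start. The antioxidant motif was in 5 of these (25%), which belong to 4 genes. It was present in 4 of 15 promoters (26.7%) of the other tested members and in 10.2% of all 32851 promoters. A match describes the letters only.

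Ugdh (ENSMUSG00000029201, GRCm39 chromosome 5, 65570564 to 65593292) stood at 106, 80.6, 92.5 and 69.6 CPM in HFD libraries 1 to 4 and at 248, 249, 238 and 258 CPM in chow libraries 5 to 8. No HFD library came near the chow range. The fall was 2.85-fold (log2 -1.51 ± 0.13 SE, adjusted p = 7.4e-06) with all libraries and 2.67-fold (adjusted p = 2.83e-06) without library 4. Gclm (ENSMUSG00000028124, GRCm39 chromosome 3, 122039206 to 122064381) stood at 198, 166, 162 and 176 CPM on HFD and 261, 218, 259.6 and 256 CPM on chow. The groups were narrow and apart, and library 4 lay within its group. A small fall of 1.42-fold was called (adjusted p = 0.00275, and 0.00313 without library 4). Aox1, an aldehyde oxidase, fell from 182 ± 19.3 to 63.1 ± 21.8 CPM (SD, n = 4 per group; 2.87-fold, adjusted p = 0.000392), and the microsomal epoxide hydrolase Ephx1 from 428 ± 44.4 to 167 ± 65.9 CPM (2.56-fold, adjusted p = 0.00181). In both, library 4 was the lowest of the 8, and without it the falls were 2.46-fold and 2.14-fold.

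Among the transferases, Gsta2, which conjugates glutathione to many electrophiles, stood at 6.4, 4.01, 6.28 and 0.953 CPM on HFD and 48.4, 27.5, 60.8 and 49.5 CPM on chow. It fell 10.2-fold (log2 -3.35 ± 0.47 SE, adjusted p = 0.000305), and 8.39-fold without library 4. Gsta4, which acts on the lipid peroxidation product 4-hydroxynonenal, was 20.1, 18.8 and 20.8 CPM in HFD libraries 1 to 3, 6.59 in library 4 and 56.6, 42.5, 59 and 58.8 on chow. Library 4 again lay below its group, and the fall was 3.23-fold with it and 2.72-fold without it (adjusted p = 0.00116 and 0.000343). Gstm1, one of the genes with the most counts among those called, fell from 1965 ± 194 to 697 ± 124 CPM (2.82-fold, adjusted p = 0.000797). Ugt1a9 fell 5.69-fold, from 25.8 ± 2.38 to 4.37 ± 2.33 CPM (adjusted p = 0.000521), and Ugt2b5 fell 2.27-fold, from 888 ± 74.3 to 391.7 ± 119 CPM (adjusted p = 0.000633).

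Of 85 tested cytochrome P450 genes 25 fell and 5 rose, and 23 and 6 of 86 without library 4. Without chow library 5 the lower count was 16. The calls were uneven over the family: 7 of 8 Cyp3a genes fell in both fits, 8 of 14 Cyp2c genes fell with all libraries and 6 without library 4, and 1 of 15 Cyp2d genes rose and 1 fell with all libraries. Cyp3a11, a PXR target and the main drug-oxidizing Cyp3a enzyme of mouse liver, stood at 1937, 1768 and 2308 CPM in HFD libraries 1 to 3, 22.5 in library 4 and 8622, 7454, 8790.3 and 8519 on chow. Library 4 lay far below every other library. The fall was called at adjusted p = 0.0268 with it and at 7.05e-06 without it, where it was 4.16-fold. With all libraries the call was lost when HFD library 2 or chow library 5 or 7 was left out (adjusted p up to 0.0537), and with the spread from the WT groups alone (0.118). Without library 4 it was kept whichever further library was left out. Cyp2b10, the classical CAR target, was at 0.147, 0.0417, 0.243 and 0.0794 CPM on HFD and 10.4, 4.26, 9.34 and 7.71 CPM on chow. The 4 HFD libraries were all close to 0, and the difference was 56.8-fold (adjusted p = 3.28e-05). Cyp2c55 fell 7.17-fold, from 17.3 ± 4.37 to 2.33 ± 1.09 CPM (adjusted p = 2.63e-05). Cyp39a1, which hydroxylates an oxysterol on the way to bile acids, fell 4.36-fold, from 26.5 ± 4.07 to 5.92 ± 3.05 CPM (adjusted p = 0.000101).

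Carboxylesterases and transporters changed both ways. Of 16 carboxylesterase genes 6 fell and 3 rose, and 7 and 3 without library 4. The higher count was 0 or 1 when HFD library 1 or 3 or any chow library was left out. Ces2a was at 131, 118 and 119 CPM in HFD libraries 1 to 3, 34.3 in library 4 and 367, 291, 323 and 258 on chow, a fall of 3.07-fold with library 4 and 2.53-fold without it (adjusted p = 0.00122 and 1.19e-05). Slco2a1, a prostaglandin transporter, stood at 50.0, 48.8, 39.8 and 48.7 CPM on HFD and 175, 156, 177 and 173 CPM on chow. All 4 HFD libraries, library 4 included, were near each other, and the fall was 3.64-fold (log2 -1.86 ± 0.16 SE, adjusted p = 7.4e-06). Of 41 ABC transporter genes 6 rose and 8 fell, and 7 and 8 without library 4. The lower count was 5, 4 and 3 without HFD library 3 and chow libraries 5 and 7.

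**Figure D3:**
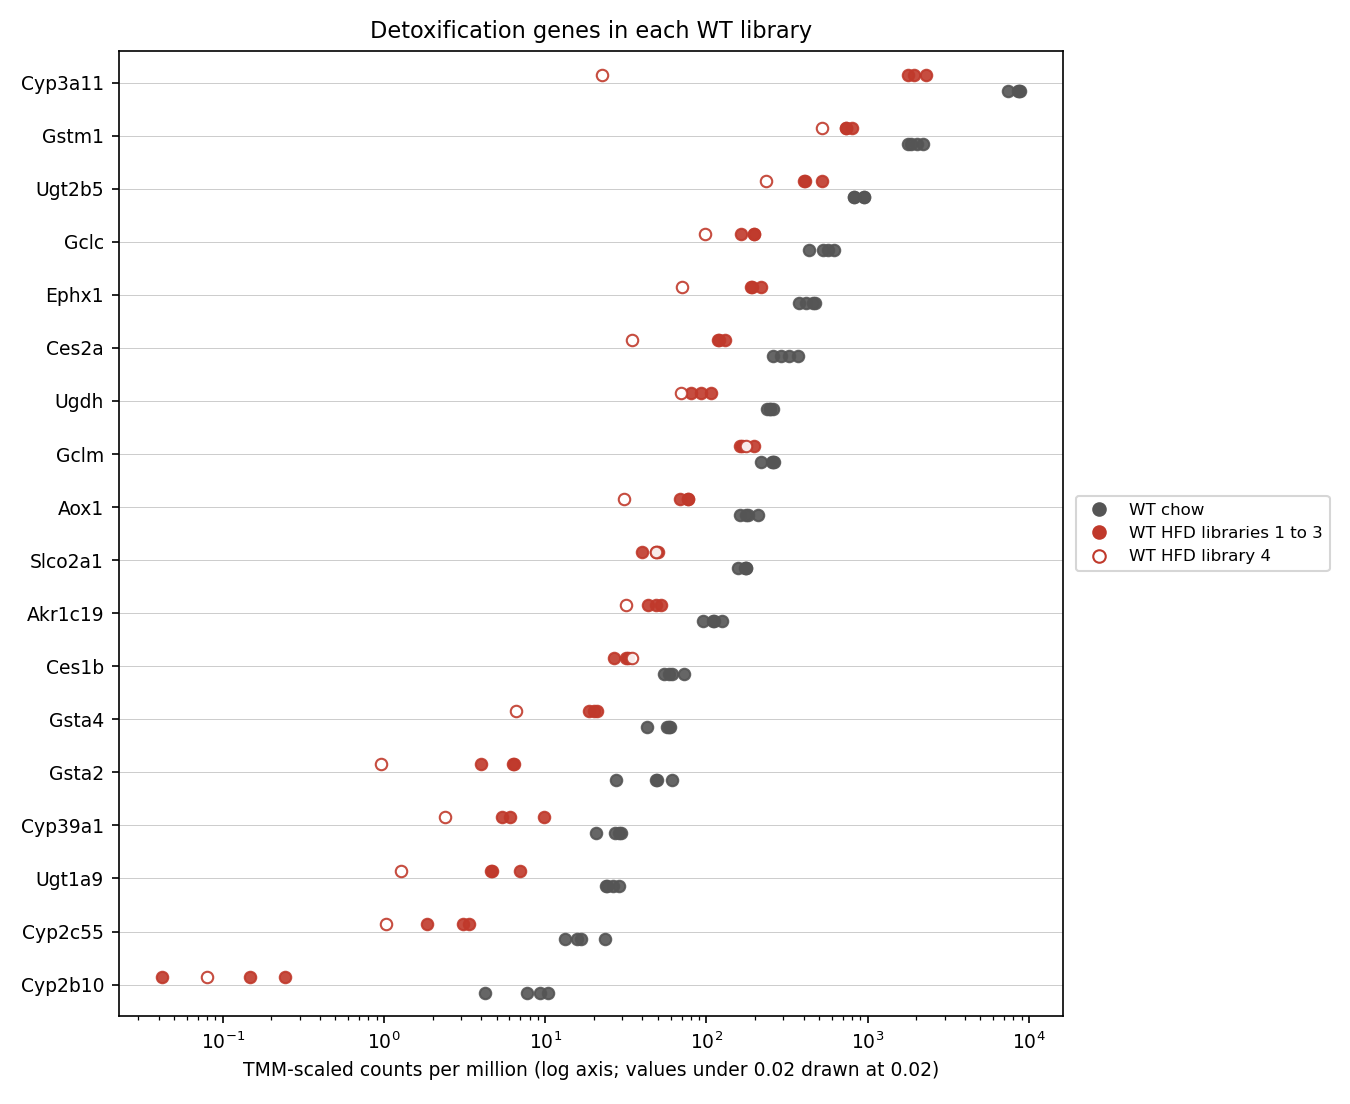
Each row is a gene and each point one WT library, on a log axis of TMM-scaled CPM. Chow libraries are grey, HFD libraries 1 to 3 filled red and library 4 open red. In every row the chow points lie to the right of all HFD points, and library 4 is far to the left in the Cyp3a11 row but inside its group in the Gclm and Slco2a1 rows.

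Clock genes changed in both directions. Of 26 tested clock and output genes 10 rose and 4 fell, against 8.37% and 6.74% of all genes, and 10 and 5 did without library 4. With all libraries the lower genes were Clock, Arntl, Npas2 and Nr1d1, and the higher ones included Per2, Per3 and output genes. Hour of collection is not in the labels, and a difference in it cannot be told apart from diet.

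The activators Clock, Arntl and Npas2 fell, as did the repressor Nr1d1. Clock was at 55.7, 49.8, 48.6 and 45.4 CPM on HFD and 106, 106, 103 and 109 CPM on chow. Libraries of a group were close together, and it fell 2.13-fold (log2 -1.09 ± 0.10 SE, adjusted p = 1.85e-05). Arntl, its partner, was at 1.32, 1.79, 1.09 and 3.97 CPM on HFD and 10.3, 9.53, 5.76 and 8.16 CPM on chow, a fall of 4.36-fold (adjusted p = 0.00186) that was 6-fold without library 4, the highest HFD library. Npas2, which can replace CLOCK, fell 10.7-fold from 1.52 ± 0.643 to 0.149 ± 0.0864 CPM (adjusted p = 0.00187). Nr1d1, the REV-ERB alpha repressor of Arntl, was at 127, 109.6, 86.9 and 31.8 CPM on HFD and 150.1, 181, 167 and 191 CPM on chow. The groups did not overlap, but library 4 lay far below the other HFD libraries, and the call (adjusted p = 0.0278) was lost without HFD library 3 or chow library 6, 7 or 8 (adjusted p up to 0.0641) and with the spread from the WT groups alone (0.101). Without library 4 its fall was 1.6-fold (adjusted p = 0.00666), and it was lost if HFD library 3 was left out as well (0.0518).

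The genes that rose included other repressors and outputs, while 12 of the 26 listed genes were not called with all libraries. Per2 was at 44.9, 51.6, 52.8 and 55.5 CPM on HFD and 15.6, 18.3, 18 and 17.8 CPM on chow, and Per3 at 60.5, 63.4, 65.7 and 48.9 and 16.3, 17.1, 19.5 and 14.7 CPM. Every HFD value was more than 2 times every chow value in both genes, and they rose 2.93-fold and 3.53-fold (adjusted p = 0.0004 and 3.28e-05). The D-box factors Dbp and Tef rose 2.52-fold and 1.66-fold (adjusted p = 0.000986 and 0.00789). Dbp was at 64.7, 76.9, 64.9 and 34.8 CPM on HFD and 21.7, 20.7, 33.8 and 19.9 CPM on chow, so that library 4 lay only just above chow library 7. Ciart, a repressor of CLOCK and ARNTL, was at 12.4, 13.6, 13.2 and 6.91 CPM on HFD and 1.65, 1.3, 2.67 and 1.93 CPM on chow, 6.11-fold higher (adjusted p = 0.00151). Usp2, a deubiquitinating enzyme, and Wee1, a kinase that holds back mitosis, rose 4.61-fold and 3.42-fold (adjusted p = 0.00237 and 0.000541). Library 4 was the lowest HFD library in Per3, Dbp, Tef, Ciart, Usp2 and Wee1, and without it their changes were 3.74-fold, 2.86-fold, 1.76-fold, 6.88-fold, 4.97-fold and 3.71-fold.

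Promoters of 2 of the higher genes are shown because they hold the clock motifs. Capitals mark D-box sequences, searched as TTATGTAA, in Per3 and E-boxes, searched as CACGTG, in Ciart, both on either strand. The Per3 stretch is chr4:151044666-151044915 on the minus strand, with D-boxes 205 and 158 bases before the start. The Ciart stretch is chr3:95882252-95882478 on the minus strand, with E-boxes 116, 58 and 44 bases before the start (GRCm38.p6, RefSeq table).
Per3: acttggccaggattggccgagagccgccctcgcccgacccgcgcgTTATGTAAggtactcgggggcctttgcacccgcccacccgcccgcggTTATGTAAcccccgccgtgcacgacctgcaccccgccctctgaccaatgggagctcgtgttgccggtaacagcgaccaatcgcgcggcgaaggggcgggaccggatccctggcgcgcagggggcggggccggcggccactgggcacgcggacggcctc
Ciart: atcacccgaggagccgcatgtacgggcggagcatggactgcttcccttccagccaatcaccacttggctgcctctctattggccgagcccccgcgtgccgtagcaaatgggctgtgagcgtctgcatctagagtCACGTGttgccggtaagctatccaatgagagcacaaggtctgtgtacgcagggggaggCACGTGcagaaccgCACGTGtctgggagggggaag
Of the 9 clock genes higher in both fits 6 were in the promoter table, with 7 promoters. An E-box was in 3 of these (42.9%) and a D-box in 1 (14.3%), beside 6.02% and 0.819% of all promoters. The 3 promoters with an E-box belong to 2 genes. The 4 genes lower in both fits had 7 promoters and neither motif, while 5 of 16 promoters (31.2%) of the other tested clock genes had an E-box.

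**Figure D4:**
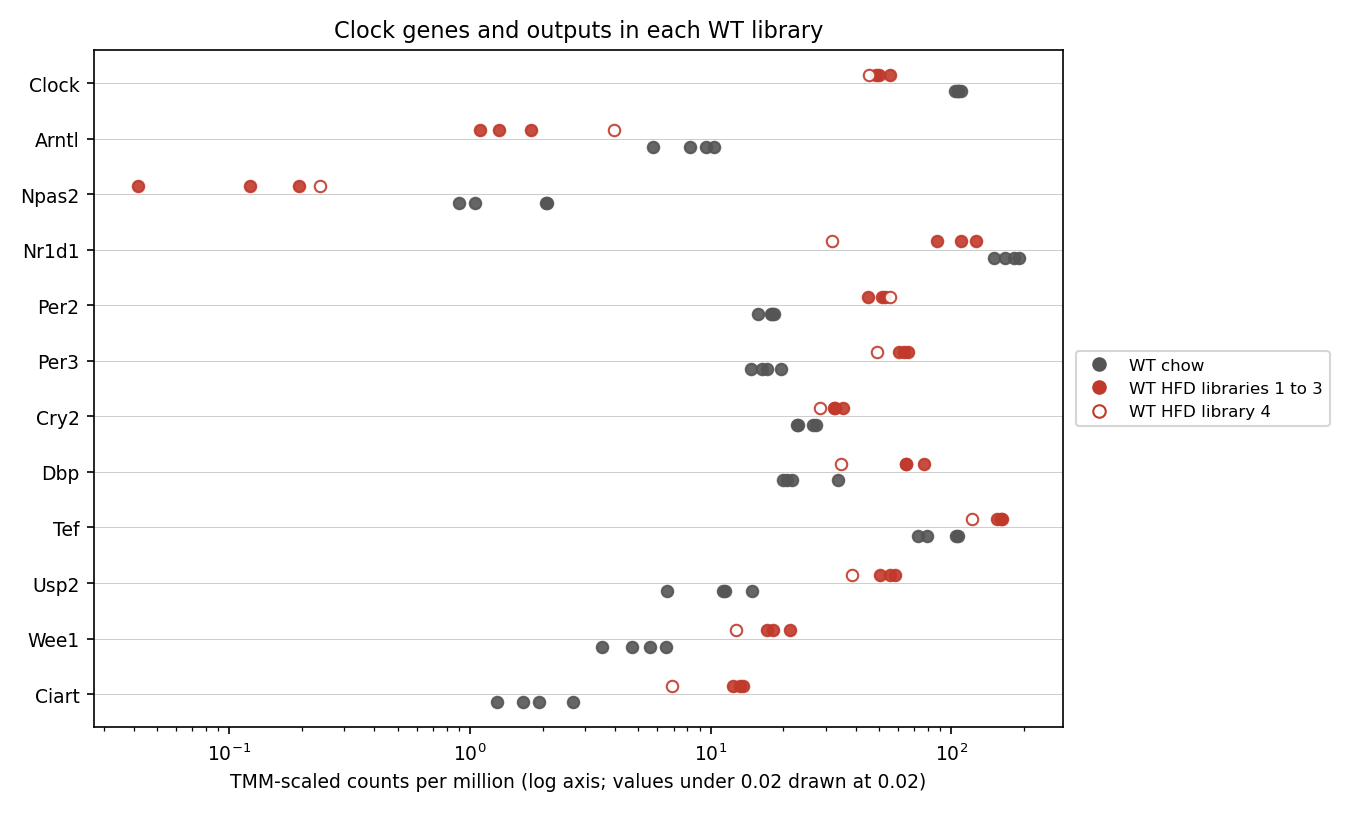
Each row is a clock gene or output and each point one WT library, on a log axis of TMM-scaled CPM, with chow grey, HFD libraries 1 to 3 filled red and library 4 open red. HFD points lie to the left of chow in the first 4 rows, from Clock to Nr1d1, and to the right in the other rows.

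Genes of phospholipid, sphingolipid and fat handling included some of the most separated groups. Gpcpd1 cleaves glycerophosphocholine to release choline. It stood at 230.1, 227, 294 and 227 CPM on HFD and 37.1, 45.4, 43.8 and 40.0 CPM on chow, and rose 5.88-fold (ENSMUSG00000027346, GRCm39 chromosome 2, 132371002 to 132420168; log2 2.56 ± 0.22 SE, adjusted p = 7.4e-06). Smpd3, the neutral sphingomyelinase that makes ceramide, was at 13.9, 11, 11.9 and 24.9 CPM on HFD and 0.472, 0.509, 0.816 and 0.247 CPM on chow. It was below 1 CPM in every chow library and rose 29.3-fold (adjusted p = 3.9e-05), and 23.5-fold without library 4. Sgpl1, the lyase that ends sphingosine 1-phosphate, fell 1.86-fold from 98.7 ± 9.45 to 53.1 ± 4.13 CPM (adjusted p = 7.56e-05), and S1pr1, a receptor of that lipid, fell 1.74-fold from 73 ± 6.66 to 42 ± 8.42 CPM (adjusted p = 0.0011). Of 28 sphingolipid genes 3 rose and 5 fell, and 2 and 7 without library 4. Without HFD library 1, 5 were higher.

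Of 26 phospholipid genes 3 rose and 5 fell, and 5 and 5 without library 4. The higher count was 1 without any one chow library, and the lower count was 3 without HFD library 2. Cept1, which completes phosphatidylcholine and phosphatidylethanolamine, fell 1.55-fold from 63.5 ± 4.83 to 40.9 ± 6.72 CPM (adjusted p = 0.000704). Chdh, which oxidizes choline towards betaine, fell 1.48-fold (adjusted p = 0.00319). Soat2, which esterifies cholesterol for lipoproteins, fell 1.6-fold from 34.4 ± 3.12 to 21.4 ± 2.07 CPM (adjusted p = 0.00052). Apoa4 and Fabp2, an apolipoprotein and a fatty acid binding protein best known from the intestine, shared a pattern in which library 4 stayed near chow. Fabp2 was at 64.1, 58.3 and 60.2 CPM in HFD libraries 1 to 3, 10.7 in library 4 and 16, 12.2, 11.2 and 16.3 on chow, and rose 3.49-fold with library 4 and 4.37-fold without it (adjusted p = 0.00263 and 5.16e-08). Apoa4 was at 162, 273 and 441 CPM, 33.6 CPM and 12.8, 18.7, 15.1 and 28.5 CPM in the same order (adjusted p = 0.00052 and 3.52e-06).

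Sulfur amino acid genes changed both ways. Of 28 genes of methionine, sulfur and one-carbon metabolism 4 rose and 6 fell, and 7 and 7 without library 4. Csad, an enzyme of taurine synthesis, was at 33.8, 71.5, 32.9 and 22.5 CPM on HFD and 394, 361, 246 and 287 CPM on chow. The lowest chow library was more than 3 times the highest HFD library, and the fall was 8-fold (ENSMUSG00000023044, GRCm39 chromosome 15, 102085434 to 102097493; log2 -3.00 ± 0.51 SE, adjusted p = 0.00111). Bhmt, which remethylates homocysteine with betaine, rose 2.08-fold from 1039.6 ± 315 to 2167 ± 667 CPM with all libraries (adjusted p = 0.0293). That call was lost without HFD library 1, 2 or 3 or chow library 5 or 7 (adjusted p up to 0.0911), and with the spread from the WT groups alone (0.0576). Without library 4, which lay within the chow range, the rise was 2.4-fold (adjusted p = 0.00585) and was kept whichever further library was left out.

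Of 40 amino acid catabolism genes 8 rose and 4 fell, and 14 and 3 without library 4. The higher count was 4 without chow library 7 and 5 without HFD library 1 or chow library 5 or 8. Prodh, which starts proline breakdown, was at 123, 124, 135 and 128 CPM on HFD and 72.8, 68, 71.4 and 61.7 CPM on chow, with narrow groups, and rose 1.86-fold (adjusted p = 0.00104). Oat, which feeds ornithine into glutamate, rose 1.54-fold from 315 ± 35.6 to 486 ± 81.9 CPM (adjusted p = 0.00937). Slc38a3, a glutamine transporter, rose 1.48-fold (adjusted p = 0.0088), and Bckdhb, a subunit of the branched-chain keto acid dehydrogenase, rose 1.34-fold (adjusted p = 0.00451). Pcx, which makes oxaloacetate from pyruvate, was the 1 of 19 tricarboxylic acid cycle genes called with all libraries, at 578 ± 40.7 CPM on HFD and 376 ± 28.8 on chow (adjusted p = 0.00256). The count was 4 without library 4, 2 without HFD library 1 and 3 without HFD library 2. Of 21 peroxisome biogenesis genes 3 rose and 1 fell, and 7 and 0 without library 4. The fall of 1 was also lost without HFD library 2 or any one chow library. Pex26, a peroxisomal import factor, rose 1.85-fold (adjusted p = 0.000975).

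Ppp1r3c targets protein phosphatase 1 to glycogen. It was at 18, 11.5, 9.72 and 9.14 CPM on HFD and 56.7, 48.8, 49.5 and 50.9 CPM on chow, a fall of 4.24-fold with a wide gap between the groups (log2 -2.08 ± 0.23 SE, adjusted p = 5.01e-05). Slc2a4, the insulin-responsive glucose transporter of muscle and fat, was at 5.37, 3.88, 4.74 and 2.07 CPM on HFD and 0.142, 0.185, 0 and 0.0494 CPM on chow. Its level was low in every library, and the rise of 40.7-fold (adjusted p = 0.000253) starts from 8 counts over the whole chow group. Slc2a1, the widely expressed glucose transporter, rose 1.48-fold from 6.91 ± 0.51 to 10.2 ± 0.779 CPM (adjusted p = 0.00329). Gulo, the last enzyme of vitamin C synthesis, rose 1.66-fold from 194 ± 19.9 to 323 ± 14.2 CPM (adjusted p = 0.00284).

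Regulators and hormone-handling genes followed no single direction. Of 38 nuclear receptor and partner genes 4 rose and 6 fell, and 6 and 6 without library 4. The higher count was 7 without HFD library 1, and the lower count 3 without HFD library 3 or chow library 7. Arnt, the shared partner of the dioxin receptor and hypoxia factors, rose 1.45-fold in narrow groups (62.2 ± 5.17 against 42.8 ± 1.91 CPM, adjusted p = 0.000356). Hnf4a, a master factor of hepatocytes, fell 1.46-fold (adjusted p = 0.0176), a call lost without HFD library 3 or chow library 7 (adjusted p up to 0.0589), or with the spread from the WT groups alone (0.0525), but kept without library 4 (1.55-fold, adjusted p = 0.00546).

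Dio1, which activates thyroid hormone, was at 97.6, 108, 97.7 and 85.3 CPM on HFD and 36.2, 42.8, 29.7 and 31.6 CPM on chow and rose 2.77-fold (adjusted p = 0.00256). Hsd11b1, which regenerates corticosterone, fell 1.61-fold from 346 ± 53.2 to 214 ± 39.5 CPM (adjusted p = 0.00359). Hsd17b6, a steroid dehydrogenase, fell 3.8-fold, and 2.99-fold without library 4 (adjusted p = 0.00649 and 0.000374). In growth hormone signalling, Socs2, a feedback inhibitor, rose 2.77-fold from 7.53 ± 0.814 to 20.8 ± 6.04 CPM (adjusted p = 0.00549), while Stat5b, the signal transducer, fell 1.37-fold from 67.2 ± 4.32 to 49.2 ± 9.34 CPM (adjusted p = 0.00776), with library 4 inside the chow range. Among secreted factors and their receptors, Nrg4 was at 20.2, 15.2, 23.9 and 41.2 CPM on HFD and 8.03, 8.74, 6.57 and 7.61 CPM on chow and rose 3.22-fold (adjusted p = 0.00142), Lect2 rose 1.64-fold (adjusted p = 0.000586), and the interleukin 22 receptor subunit Il22ra1 fell 2.99-fold from 8.03 ± 2.1 to 2.71 ± 0.696 CPM (adjusted p = 0.00021).

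Of 27 retinoid genes 2 rose and 5 fell in both fits. Without chow library 5 or 7, 1 was higher. Cyp26a1, which breaks down retinoic acid and is itself induced by it, was at 2.93, 1.59, 1.09 and 1.43 CPM on HFD and 15.7, 11.9, 11.1 and 13 CPM on chow, a fall of 7.31-fold with no overlap (log2 -2.87 ± 0.36 SE, adjusted p = 0.000137). Dhrs3, which returns retinaldehyde to retinol, fell 1.59-fold from 156 ± 7.07 to 97.9 ± 8.64 CPM (adjusted p = 0.000253). Among stress genes, Ern1, the endoplasmic reticulum sensor IRE1 alpha, was at 76, 69.6, 76.5 and 77.1 CPM on HFD and 109.7, 137, 117 and 114 CPM on chow and fell 1.6-fold (adjusted p = 0.000663). Gadd45a, a growth arrest gene, rose 2.96-fold from 1.52 ± 0.419 to 4.51 ± 1.1 CPM (adjusted p = 0.00122). Stress lists had calls in both directions, beside 8.37% higher and 6.74% lower among all genes. Of 30 endoplasmic reticulum folding genes 1 rose and 1 fell, and 2 and 1 without library 4. Of 22 p53 and DNA damage genes 4 rose and 2 fell, and 2 and 3 without library 4. The higher count in that list was 1 without chow library 5 or 6.

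Of 245 solute carrier genes tested 31 rose and 24 fell, and 29 and 24 of 247 without library 4. Without chow library 5 the lower count was 14. Slc13a1 and Slc13a2, related sodium-coupled carriers of sulfate and of dicarboxylates, went in opposite directions. Slc13a1 was at 2.05, 3.09, 3.57 and 6.67 CPM on HFD and 0, 0.0463, 0.181 and 0.0989 CPM on chow (log2 5.43, adjusted p = 9.26e-05, and 6.14 without chow library 7), and Slc13a2 at 0.244, 0.0835, 0.162 and 0.238 and 2.6, 3.05, 3.13 and 2.27 CPM (15.5-fold lower, adjusted p = 3.75e-05). Slc43a1, a carrier of large neutral amino acids, rose 5.02-fold from 2.07 ± 0.73 to 10.5 ± 3.15 CPM (adjusted p = 8.07e-05). Slc30a10, a manganese exporter, was at 26.6, 19, 22.6 and 33.3 CPM on HFD and 49.2, 50.0, 53.5 and 51.3 CPM on chow and fell 2.02-fold (adjusted p = 0.000193). Slc8a3, a sodium-calcium exchanger, was at 0.0794 to 0.0977 CPM on HFD and 0.635 to 2.87 CPM on chow, 17.2-fold lower (adjusted p = 0.00136).

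Cell junction genes had only lower calls. Of 25 junction and polarity genes 8 fell and 0 rose, and 7 and 0 without library 4. A single higher call appeared without HFD library 2 or chow library 8. Cldn1, a tight junction claudin, was at 49.4, 47.7, 38.4 and 30.7 CPM on HFD and 80.9, 76.5, 84.6 and 76.4 CPM on chow and fell 1.91-fold (adjusted p = 0.000695). Tjp3, a scaffold of the same junction, fell 1.57-fold from 22.6 ± 0.947 to 14.3 ± 3.62 CPM (adjusted p = 0.00514). In a list of 40 cytoskeleton, annexin and S100 genes 10 rose and 8 fell, and 7 and 7 without library 4. All 8 lower members were tubulins (Tuba1b, Tuba1c, Tuba4a, Tuba8, Tubb2a, Tubb2b, Tubb4b and Tubb5, named after their values were seen). The lower count was 5 without chow library 8, and the higher count was 4 without chow library 5, 6 or 7 and 6 without chow library 8. Tuba4a was at 51.9, 64.6, 46.3 and 27 CPM on HFD and 121, 122, 118 and 132 CPM on chow, a fall of 2.59-fold with library 4 and 2.27-fold without it (adjusted p = 0.000253 and 2.7e-05). Tubb4b fell 1.94-fold from 85.9 ± 7.63 to 44.2 ± 8.84 CPM (adjusted p = 0.00274). In the other direction, Anxa2, a membrane-binding annexin, rose 2.5-fold from 4.81 ± 0.709 to 12 ± 2.57 CPM (adjusted p = 0.000865).

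More immune genes were called higher than lower with all libraries, and the counts depended on library 4. Of 36 acute phase genes 20 rose and 0 fell with all libraries, and 10 rose and 3 fell without library 4 (13 rose without chow library 6). Their summed level was 102086 CPM in library 4, 19925 to 31453 in the other HFD libraries and 24309 to 27377 on chow. Interferon response genes had 12 of 38 higher with all libraries and 7 without library 4, all 7 of them among the 12. Their count was also 7 without chow library 5 or 6 and 6 without chow library 7. Of 22 chemokine genes 8 rose and 1 fell, against 2 and 2 without library 4. The lower call was lost without HFD library 2 or 3 or chow library 5, 7 or 8. Leaving out a chow library gave 1 (libraries 5 and 6), 2 (library 7) or 3 (library 8) higher. Class II antigen presentation genes had a median log2 change of 1.46 over 9 tested with library 4 and 0.07 without it, with 1 call and 0 calls. That count was 3 without HFD library 2, 7 without HFD library 3 and 0 without any one chow library. With the spread estimated from the WT groups alone, the higher counts were 5 for acute phase, 1 for interferon and 0 for chemokine genes. How far blood cells in library 4 contribute to these values was not tested.

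Several immune members were apart in HFD libraries 1 to 3 as well. Lipid-associated macrophage genes had 11 of 19 higher, and 8 higher and 1 lower without library 4. The higher count was 6 without chow library 7 and 3 with the spread from the WT groups alone, and 1 was lower without chow library 6. Kupffer cell markers summed to 987 CPM in library 4, 343 to 462 in the other HFD libraries and 359 to 506 on chow, and their part in these values was not tested. Mmp12, a macrophage elastase, was at 0.684, 1.42, 0.81 and 3.26 CPM on HFD and 0.0472, 0.0463, 0.0907 and 0.0989 CPM on chow, 12.9-fold higher without library 4 (adjusted p = 0.000114). Gpnmb, a glycoprotein of lipid-laden macrophages, was at 0.586, 1.46 and 1.13 CPM in HFD libraries 1 to 3, 16.2 in library 4 and 0.142, 0.0925, 0.0907 and 0.0494 on chow, 10.8-fold higher without library 4 (adjusted p = 0.000436). Lpl, lipoprotein lipase, rose with and without library 4 (2.93-fold and 2.85-fold, adjusted p = 0.000243 and 0.000218). Of 12 toll-like receptors 7 rose, and 4 without library 4. The count was 2 without chow library 5, 3 without chow library 6 and 2 with the spread from the WT groups alone. Tlr12 and Tlr3, receptors for profilin and double-stranded RNA, rose 2.5-fold and 1.67-fold (adjusted p = 0.000774 and 0.00295). Library 4 had the lowest Tlr12 level of the HFD group, 7.31 CPM against 9.77, 10.4 and 11 CPM. Lyve1, a hyaluronan receptor of sinusoidal and lymphatic endothelium and some macrophages, rose 3.48-fold from 3.26 ± 0.677 to 11.3 ± 5.05 CPM (adjusted p = 0.0037). Of 24 tested sinusoidal and vascular endothelium genes 1 rose and 1 fell in both fits, with median log2 changes of -0.02 and -0.01. The higher count was 2 without HFD library 1 or chow library 7, and the lower count 0 without chow library 5 or 7. Their summed level was 566 to 633 CPM on HFD and 565 to 657 on chow.

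Of 20 class I antigen processing genes 6 rose and 0 fell, and 5 and 0 without library 4. The count was 10 without HFD library 3, and 3 with the spread from the WT groups alone. The immunoproteasome subunit Psmb9 was at 9.48, 10.3, 8.18 and 17.3 CPM on HFD and 3.35, 2.78, 4.53 and 4 CPM on chow, 3.06-fold higher with library 4 and 2.54-fold without it (adjusted p = 0.000335 and 0.000153). Tap1, a subunit of the peptide transporter, rose 2.27-fold and 1.84-fold in the same fits (adjusted p = 0.00248 and 0.00214). Of 69 histone genes 15 rose and 0 fell, and 11 and 0 without library 4. The count was 9 without chow library 6 and 8 with the spread from the WT groups alone. The linker histone H1f3 was at 7.67, 9.14, 11.3 and 18.4 CPM on HFD and 3.78, 3.52, 4.44 and 6.28 CPM on chow, 2.09-fold higher without library 4 (adjusted p = 0.00272). H4c18 rose 2.79-fold (adjusted p = 0.00312), but histone H4 genes are near-identical copies and their counts may be split.

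A few lymphocyte genes were higher, while most listed lymphocyte markers were not called. Themis, a T cell development gene, was at 12, 12, 15.6 and 7.71 CPM on HFD and 0.425, 0.555, 0.499 and 0.643 CPM on chow, and library 4 was the lowest HFD library. It rose 22.3-fold (ENSMUSG00000049109, GRCm39 chromosome 10, 28544356 to 28759814; adjusted p = 6.97e-05). Cd4, the T helper coreceptor, rose 3.98-fold from 0.892 ± 0.32 to 3.64 ± 1.84 CPM (adjusted p = 0.00404). The summed level of 26 T and NK cell markers was 10.7 to 16.8 CPM in HFD libraries 1 to 3, 61.8 in library 4 and 8.42 to 15.2 on chow. Of 10 tested, 2 rose with all libraries and 1 without library 4 or without chow library 8. Their median log2 change was 0.86 with all libraries and -0.01 without library 4. Themis is not among these markers, and in HFD library 3 its level was above their sum. Of 11 tested B and plasma cell markers 2 rose, and 1 without library 4 or without chow library 5, 6 or 8. The median log2 change of these 11 was -0.32 with all libraries and -0.27 without library 4. Igkv8-16, an immunoglobulin kappa variable segment, was at 7.13, 37.3, 2.47 and 39.1 CPM on HFD, with 1594 counts in all, and had 0 counts in all 4 chow libraries. Variable segments resemble each other, and reads may be split between copies. Taking 3 counts over all chow libraries as the limit that 0 allows, it was at least 610-fold higher, and at least 444-fold higher without library 4, for counting error only.

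Some increases were called only with library 4. Isyna1, which makes inositol phosphate, was at 2.49, 2.84 and 2.11 CPM in HFD libraries 1 to 3, 107 in library 4 and 4.21, 3.05, 3.26 and 2.62 on chow. With library 4 it was called 8.47-fold higher (adjusted p = 0.0409), and without it the log2 change was -0.41 (adjusted p = 0.163). The call was also lost without any one chow library (adjusted p up to 0.0928). The metallothioneins Mt1 and Mt2, the acute phase proteins Orm2, Saa3 and Apcs and the chemokine Cxcl1 lost their calls without it too. Their log2 changes were 5.02, 6.38, 4.98, 3.38, 2.42 and 2.699 with library 4 (adjusted p = 0.014, 0.0129, 0.00981, 0.0142, 0.0259 and 0.0356). Without it they were 1.06, 1.81, 1.32, 0.93, 0.38 and 0.64 (adjusted p = 0.223, 0.175, 0.0694, 0.0541, 0.243 and 0.417). The calls of Apcs and Cxcl1 were lost without any one chow library as well (adjusted p up to 0.0697 and 0.0959). All 7 of these genes also lost their calls with the spread from the WT groups alone. Saa1 was higher in the other HFD libraries too, at 123, 28 and 26.9 CPM, 7574 CPM in library 4 and 5.67, 5.55, 7.93 and 7.32 CPM on chow, and stayed called without library 4 (8.96-fold, log2 3.16, adjusted p = 0.000246), where leaving out HFD library 1 as well gave a log2 change of 2.05.

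Other changes were called only without library 4. Itga5, the fibronectin receptor subunit, was at 10.3, 12 and 11.9 CPM in HFD libraries 1 to 3, 28.8 in library 4 and 24.4, 24.9, 26.5 and 23.4 on chow. It was not called with library 4 (log2 -0.68, adjusted p = 0.0674) and fell 2.17-fold without it (adjusted p = 3.04e-05). Srd5a1, a steroid 5 alpha-reductase, was at 99, 92.6 and 99.8 CPM, 18 CPM and 64, 61.9, 66.6 and 64.5 CPM in the same order, and was called 1.51-fold higher without library 4 (adjusted p = 0.000146, and 0.618 with it). Enpp2, which encodes autotaxin, was 1.56-fold higher (adjusted p = 0.000612, and 0.371 with library 4) and the ceramidase Acer3 1.51-fold lower (adjusted p = 0.00032, and 0.064 with library 4).

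**Figure D5:**
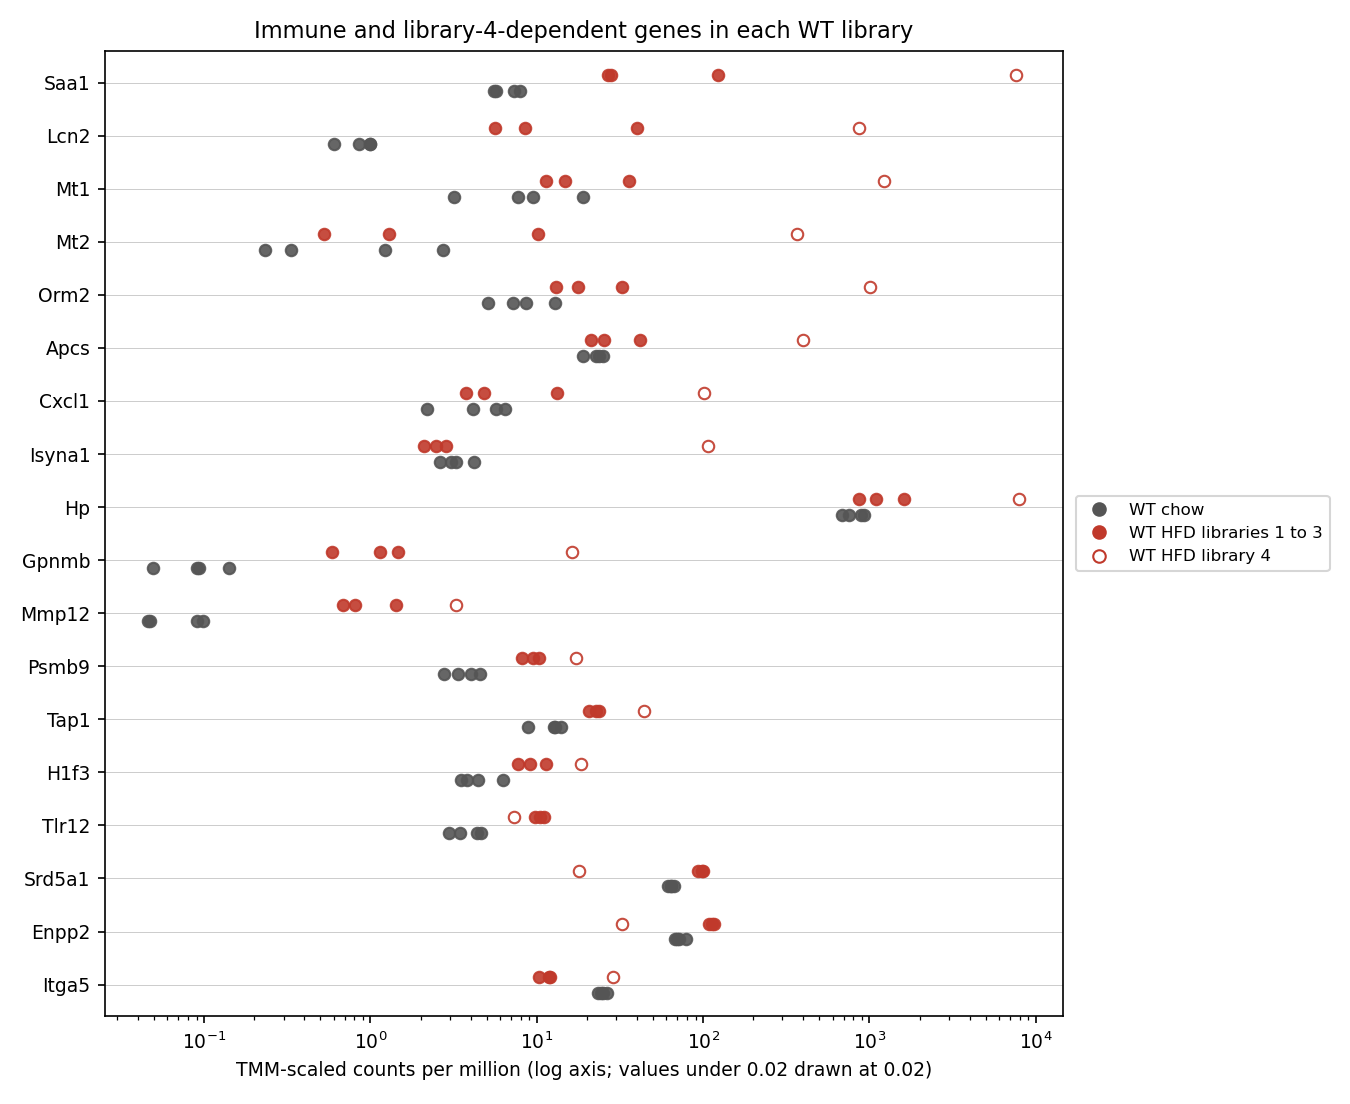
Each row is a gene and each point one WT library, on a log axis of TMM-scaled CPM, with chow grey, HFD libraries 1 to 3 filled red and library 4 open red. From Saa1 to Gpnmb library 4 lies far to the right of the other HFD libraries, from Mmp12 to Tlr12 all HFD points lie to the right of chow, and in the last 3 rows library 4 and the other HFD libraries lie on opposite sides of the chow points.

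Among the largest increases without overlap, Scara5, a ferritin receptor, was at 30.9, 14.8, 11.3 and 87.8 CPM on HFD and 0.378, 3.05, 0.317 and 0.593 CPM on chow (32.7-fold higher, adjusted p = 0.000325), and 17.3-fold higher without library 4. Chow library 6 was above the other chow libraries in Scara5 and in Moxd1, a copper monooxygenase. Moxd1 was at 73.1, 42.5, 9.64 and 136 CPM on HFD and 0, 4.72, 0.0453 and 0.0494 CPM on chow. Its log2 change was 5.73 (adjusted p = 0.00967), 5.09 without library 4 and 10.74 without chow library 6. That of Scara5 was 5.03, and 6.34 without chow library 6. Tff3, a trefoil peptide of mucosal surfaces, rose 29.4-fold from 0.0836 ± 0.072 to 2.56 ± 0.828 CPM (adjusted p = 0.000699). The long noncoding gene Ttc39aos1 had 84 counts over the HFD group and 3 over the chow group. Among the largest decreases, Srgap3, a GTPase-activating protein, was at 0.782, 0.918, 0.77 and 2.07 CPM on HFD and 7.18, 11.5, 4.99 and 6.82 CPM on chow (7.12-fold lower, adjusted p = 9.29e-05). Grm8, a metabotropic glutamate receptor, fell 7.32-fold from 5.49 ± 2.72 to 0.782 ± 0.312 CPM, Raet1e, a stress ligand of the NKG2D receptor, 7.43-fold from 6.97 ± 1.89 to 0.94 ± 0.21 CPM, and Nup62cl 10.0-fold from 2.22 ± 0.438 to 0.201 ± 0.148 CPM (adjusted p = 9.26e-05, 6.97e-05 and 0.000286). The log2 change of Nup62cl was -3.32, and -3.96 without HFD library 2. Neat1, the noncoding RNA that scaffolds paraspeckles, was at 759.8, 1591, 1109 and 2230.2 CPM on HFD and 5274, 6283, 3841 and 3357 CPM on chow, with no overlap. It fell 3.3-fold with all libraries and 4.07-fold without library 4 (adjusted p = 0.00721 and 0.00222).

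Other core functions had few or no calls, against 15.1% of all genes. Of 75 nuclear genes of oxidative phosphorylation 0 were called with all libraries, and 1 rose without library 4. Of 76 cytosolic ribosome genes 0 were called with all libraries and 3 fell without library 4. At an unadjusted p below 0.05 edgeR had 4 and 2 genes in these lists, and DESeq2 called 0 and 1. Among the former 1 rose without chow library 5 and 2 without chow library 8, and among the latter 1 rose without HFD library 1 and 1 fell without chow library 6. Of 22 major urinary protein genes, which are near-identical copies, 0 were called by edgeR in either fit, 0 had an unadjusted p below 0.05 with all libraries and 0 were called by DESeq2. With the spread from the WT groups alone 6 were called higher without library 4, and 0 with it. The groups did not overlap in 10 of the 22 without library 4, when the median log2 change was 0.65, and in 0 with it, when it was 0.34. Among all tested genes the groups did not overlap in 26.3% without library 4 and in 18.2% with it. Of 14 tested hepatocyte markers the 1 called by edgeR was Hnf4a, given above, and DESeq2 called 2 lower without library 4. Ttr was not called by edgeR (2118 ± 561 against 3056 ± 330.3 CPM, adjusted p = 0.0979), nor was Apoa1 (3975 ± 834 against 3126 ± 285 CPM, adjusted p = 0.321). Alb was 29701 ± 14354 CPM on HFD and 52779.5 ± 5789.5 on chow, and 36805 ± 2509.8 (n = 3) without library 4 (edgeR adjusted p = 0.153 and 0.169). DESeq2 called Alb lower with all libraries (adjusted p = 0.0415) and without library 4, and Ttr with all libraries (adjusted p = 0.0295). Asgr1, Apob, Trf, Cyp2e1, Cps1 and Ahsg had log2 changes of 0.10, -0.15, 0.20, 0.32, -0.16 and 0.09, with adjusted p from 0.27 to 0.739.

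The diet effect differed with genotype in 844 of 17318 genes by the interaction test (4.87%), and in 1129 of 17642 without library 4. Of the 2063 genes called in both fits 390 were among the 844. The WT change by which these were chosen is part of the difference tested, so their share cannot be set against 4.87%. Values below are log2 changes, HFD minus chow, in WT and then in HuMgat2 mice, with the adjusted p of their difference. NRF2 and glutathione genes had 16 of 33 members with a called difference with all libraries, P450 genes 20 of 85, amino acid catabolism 12 of 40, glutathione S-transferases 2 of 23 and clock genes 4 of 26. Without library 4 the counts were 17 of 33, 31 of 86, 16 of 40, 3 of 23 and 6 of 26 in the same order. Major urinary protein genes, which are near-identical copies, had a called difference in 6 of 22 with all libraries and 19 of 22 without library 4. Ugdh changed by -1.51 in WT, and in HuMgat2 mice its value was 0.25 (adjusted p = 8.35e-05). Ugt1a9, Ephx1 and Aox1 showed a like contrast, at -2.51 and 0.17, -1.35 and 0.13, and -1.52 and -0.02 (adjusted p = 0.00602, 0.0184 and 0.00907). For Cyp2b10, Cyp2c55 and Cyp3a11 a difference was not called, and values were -5.83 and -4.71, -2.84 and -3.77, and -2.47 and -3.32 (adjusted p = 0.544, 0.213 and 0.684).

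Gpcpd1 had 2.56 in WT and -0.41 in HuMgat2 mice (adjusted p = 6.97e-05), and Npas2 had -3.42 and 0.43 (adjusted p = 0.00827). Among genes called in both fits, those with the smallest p of the difference included Slc22a27, an organic anion transporter, at -0.96 and 3.94 (adjusted p = 4.79e-07), and Cyp2c38 at -0.64 and 1.99 (adjusted p = 6.2e-05). Their WT calls depended on single libraries: that of Slc22a27 was lost without chow library 5, and that of Cyp2c38 without HFD library 2 or chow library 5 or 8 (adjusted p up to 0.0512 and 0.0862). Without library 4 the first was lost without HFD library 2 or chow library 5 and the second without HFD library 2 or 3 or chow library 5, 7 or 8 (adjusted p up to 0.0925 and 0.189). With the spread from the WT groups alone Slc22a27 was not called in either fit (adjusted p = 0.0893 with all libraries). Adam11, a metalloprotease family member, had 1.64 and -1.60, the kinase Pim1 0.92 and -1.11, and Pcp4l1 -2.36 and 0.94 (adjusted p = 5.7e-05, 5.7e-05 and 8.35e-05). Per2, Dbp, Dio1, Themis and Neat1 had values of one sign in both genotypes and no called difference, which does not show that they were alike (1.55 and 0.83, 1.33 and 0.67, 1.47 and 0.87, 4.48 and 4.69, -1.72 and -1.65; adjusted p = 0.224, 0.263, 0.441, 0.918 and 0.96).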

How the data were processed

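Gene counts of liver RNA came from total RNA of 15 mg tissue with an RNA integrity number above 7 and ribosomal RNA removed. The authors deposited raw counts per gene name, made with featureCounts 2.0.1 on Ensembl 103 (GRCm39) annotation, per the file headers. STAR 2.7, DESeq2 1.26.0 and mm39 are named in the submitters' processing notes. No strand option was set, so a gene and its antisense partner cannot be separated, and 78 gene names join several gene IDs. The 64 records hold 4 for each of 16 libraries, which were counted once.

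Counts were filtered with filterByExpr, scaled by TMM and tested 2-sided with the quasi-likelihood test of edgeR 4.0.16 (R 4.3.3) with all 16 libraries in one model. Genes were called at a Benjamini-Hochberg adjusted p below 0.05 over all genes tested, with no minimum fold. The fit was repeated without WT HFD library 4. Gene types come from a GENCODE annotation of GRCm38, matched by gene ID, and 123 tested genes had no match. Levels are TMM-scaled CPM (counts scaled to library size), and means are given ± SD. On simulated counts for the comparison with all libraries (17104 genes), the fit recovered 23.9% of genes changed 1.5-fold, 76.1% at 2-fold and 95.5% at 4-fold, with 8 false calls among 138. The simulation changed 67, 67 and 66 genes at these folds, all with a mean of at least 1 CPM. It was given no library that stood apart. In the data 15.1% of genes were called, so these rates need not hold there.

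The comparison, the members and the gene lists were chosen with earlier results of these data known. Named genes are the largest changes without overlap called in both fits (at least 1 CPM in the higher group), the most abundant called genes, up to 3 members of a list or 2 of a family with the smallest adjusted p, genes called in one fit only, genes with the smallest interaction p and defining hepatocyte markers. Arntl, Nr1d1, Dbp, Tef, Ciart, Usp2, Wee1, Gsta4, Ephx1, Aox1, Cyp39a1, Gstk1, Gstz1, Cfd, Cidea, Car3, Spp1 and Onecut1 were named after their values were seen. Alternatives were DESeq2 1.42.0, its size factors, other filters, the WT groups alone, no mitochondrial, ribosomal RNA or hemoglobin genes, and leaving out each WT library.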

Additional observations from a re-analysis of the deposited data

Results flagged for a closer look

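Each of 124 named genes was checked in both WT groups for a sample far from the other 3, and 36 of 248 groups had one. Chance alone flags about 1 in 20 groups. Some of these genes were named because their call changed with library 4, so the flagged count cannot be set against that rate. In 24 of the 28 HFD groups this was library 4. Its values, in CPM, were Gsta4 (6.59), Ces2a (34.3), Fabp2 (10.7), Slc43a1 (15.3), Tap1 (44.2), Gpnmb (16.2), Saa1 (7574), Srgap3 (2.07), Mt2 (365), Mt1 (1219), Orm2 (1005) and Isyna1 (107). Further library 4 values were Saa3 (69.4), Cxcl1 (101), Apcs (399.8), Itga5 (28.8), Srd5a1 (18), Acer3 (28.4), Enpp2 (32.7), Pim1 (37.4), Pcp4l1 (2.14), Alb (8390.0), Car3 (83.7) and Trf (11526) CPM. Another HFD library was far from the rest in Slco2a1 (library 3, 39.8 CPM), Gpcpd1 (library 3, 294 CPM), Ern1 (library 2, 69.6 CPM) and Apoa1 (library 2, 5222 CPM). On chow the sample was library 6 for Gclm (218 CPM), library 6 for Gsta4 (42.5 CPM), library 7 for Dbp (33.8 CPM), library 6 for Arnt (45.7 CPM), library 8 for Tlr3 (7.96 CPM), library 6 for Moxd1 (4.72 CPM), library 6 for Scara5 (3.05 CPM) and library 8 for Raet1e (9.79 CPM).

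The interaction test found a different diet effect in WT and HuMgat2 mice for 44 of the 124 named genes. The share was 4.87% over all tested genes, and 390 of the 2063 genes called in both fits had such a difference. Some named genes were chosen for a small interaction p, so the count of 44 was partly set by that choice. The 2063 genes and most named genes were also chosen by their WT diet change. That change is part of the difference tested, so neither count can be set against 4.87%. The difference is the WT minus the HuMgat2 log2 change, by the edgeR test with adjusted p below 0.05. It was above 0 for Per3 (1.06), Gpcpd1 (2.97), Prodh (1.43), Oat (1.35), Slc38a3 (1.09), Slc2a1 (1.35), Pex26 (0.89), Arnt (0.49), Slc43a1 (3.58), Psmb9 (1.18) and Cd4 (3.31). Also above 0 were H1f3 (1.29), H4c18 (1.75), Saa1 (7.38), Gadd45a (2.05), Moxd1 (14.67), Tff3 (7.63), Scara5 (6.72), Cxcl1 (5.06), Adam11 (3.24), Pim1 (2.04) and Cps1 (1.24). It was below 0 for Ugdh (-1.76), Ephx1 (-1.49), Aox1 (-1.50), Cyp39a1 (-1.41), Ugt1a9 (-2.68), Npas2 (-3.85), Sgpl1 (-0.78), Cept1 (-0.87), Soat2 (-0.66), Csad (-2.49) and Cyp26a1 (-2.06). Also below 0 were Il22ra1 (-1.90), Slc30a10 (-0.69), Tjp3 (-1.16), Tuba4a (-0.99), Tubb4b (-1.29), Anxa2 (-1.38), Tlr12 (-1.13), Raet1e (-3.59), Slc22a27 (-4.90), Cyp2c38 (-2.63) and Pcp4l1 (-3.30). Library 4 is part of the WT HFD mean in all of these values.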

How the results depend on the processing

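With all libraries, 1452 genes (655 higher) were called when filter, scaling and spread came from the 2 WT groups only. Leaving out 1 library gave 1673 to 2632 calls, 856 to 1522 higher and 817 to 1237 lower. Without chow library 5 there were 1673 calls, and without chow libraries 5, 6 and 7 the higher counts were 856, 908 and 932. Without library 4, leaving out 1 further library gave 1457 to 2302 calls, 820 to 1224 higher and 637 to 1096 lower, each lowest without HFD library 3. DESeq2 called 3141 genes with all libraries and 2915 without library 4. The other settings gave 2387 to 2623 and 2473 to 2606 calls. The interaction count was 844 with library 4 and 1129 without it. Of 110 named genes called with all libraries 94 were kept whichever library was left out and 96 under every other setting. Of 106 called without library 4, 101 and 104 were. Moxd1 lost its call without library 4 under DESeq2. Some log2 changes had either sign when 1 library was left out: with all libraries Isyna1 (-0.41 to 3.48), Trf (-0.072 to 0.30) and Ahsg (-0.0065 to 0.16) were lowest and below 0 without library 4. Starting from the fit without library 4, Mt2 (-0.30 to 2.698) and Cxcl1 (-0.11 to 0.96) were below 0 without HFD library 1, and Cps1 (-0.29 to 0.028) was above 0 without HFD library 2. Ahsg ranged from -0.077 to 0.055 there, above 0 without HFD library 1 (0.0026) or 3 (0.055) or chow library 8 (0.011) and at 0.00088 with a minimum of 1 CPM. With the spread from the WT groups alone and all libraries, lower counts were 16 for P450, 11 for solute carrier, 3 for ABC transporter and 5 for junction genes. Higher counts were 5 for amino acid catabolism, 2 for cytoskeleton, 1 for phospholipid and 0 for carboxylesterase genes. The cause was not tested. No paired analysis was possible because library numbers do not repeat between groups. In the simulation, at these library sizes, the test recovered 23.9% of 1.5-fold changes. Far fewer genes were changed there than were called in the data, so that rate need not hold for the data.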
